A study of Mus musculus with 4 samples.

Results

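Arterial endothelial cells of the mouse heart were examined in 4 droplet single-cell libraries, and 852 of the 41542 barcodes that passed the quality limits were assigned to them. The control library gave 314, sham 179, CLP 319 and CLP plus stimulation 40. Endothelial cells line every vessel, and those of arteries and arterioles differ from the far more numerous capillary cells of the myocardium. Arterial identity is set and kept by VEGF and Notch signalling (the ligands Dll4 and Jag1, the receptors Notch1 and Notch4, targets such as Hey1) together with SoxF transcription factors, and arterial cells are joined by the gap junction proteins Gja4 and Gja5, which pass signals along the vessel wall. Capillary cells of the heart instead carry the machinery for fatty acid uptake. In sepsis the endothelium is known to display leukocyte adhesion molecules and to answer cytokines, interferons and stress hormones.

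Each group was 1 library made from mouse heart tissue with the Chromium 3' v3 chemistry, which counts molecules (UMIs) near the 3' end of polyadenylated RNA. The groups were a control, a sham, CLP (cecal ligation and puncture, in which the cecum is tied and pierced so that gut content causes sepsis), and CLP with low-level stimulation of the tragus, the cartilage flap in front of the ear canal through which a branch of the vagus nerve can be reached. Strain, sex, age, number of hearts in a library, stimulation settings and sampling time were not given in the sources used here. With 1 library in a group no test was possible, and the values below compare libraries, so that an effect of the treatment cannot be told apart from the difference between animals or preparations.

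A barcode was assigned when it held at least 1 UMI of Cdh5 or Pecam1, the junction proteins of all endothelium, and at least 1 UMI of 2 of 6 arterial genes (Gja5, Gja4, Sema3g, Bmx, Hey1 and Stmn2). It was removed if it held Prox1 (lymphatic), Npr3 (endocardial), Kcnj8 (pericyte) or Myh11 (smooth muscle), or 20 or more UMIs per 10000 of the fibroblast genes Col1a2, Dcn and Col3a1 or of the macrophage genes C1qa, C1qb and C1qc. The exclusions took away 55.5%, 51.9%, 45.3% and 48.7% of the barcodes with 2 arterial genes in the 4 libraries, in the order above, mostly through Myh11 and Kcnj8. The members' depth was lowest in control, with a median of 3125 UMIs, against 5499, 5613 and 5945.5 in the other libraries in that order. They held 1169591, 1213983, 2626145 and 351548 UMIs in all. No barcode sequence of a member occurred as a member in another library, although 211 barcode sequences were shared between pairs of libraries among all barcodes deposited.

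The label fitted the data in part. At least 3 of 9 pan-endothelial genes were present in 308, 176, 316 and 40 members, and the summed level of those 9 genes was 8196, 7892, 8047 and 5450.2 CPM (the unit used throughout, a gene's UMIs scaled to the same UMI total in each library). Most members also carried capillary genes: at least 2 of the 5 markers Rgcc, Gpihbp1, Cd300lg, Car4 and Tcf15 were detected in 85.7%, 89.4%, 93.1% and 90% of them. Ackr1, which marks venules, and the endocardial gene Hapln1 were at 0 in all 4 libraries, but other venous and endocardial markers were present, with sums given below. The rule itself sets Prox1, Npr3, Kcnj8 and Myh11 to 0.

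The genes that chose the members were not equally common among them, and their values are a description, since the rule used them. Stmn2, a regulator of microtubules, was found in 80.9%, 88.3%, 77.1% and 27.5% of members. Sema3g, a secreted guidance signal of arteries, was found in 61.8%, 59.2%, 86.8% and 97.5%, Gja4 in 54.8%, 40.8%, 26.3% and 47.5%, Hey1 in 54.1%, 71.5%, 47.3% and 30%, Gja5 in 15.3%, 17.3%, 11% and 25% and Bmx, a tyrosine kinase of arterial endothelium, in 12.4%, 14%, 8.78% and 45%. The make-up therefore differed between libraries: Stmn2 was in most members of control, sham and CLP and in a minority after stimulation, whereas Sema3g was the most common of the 6 genes in the 2 CLP libraries. Sema3g was also detected in more of the capillary-marked barcodes of those libraries (at least 3 pan-endothelial genes, at least 2 capillary markers and fewer than 2 arterial genes), at 2.77%, 4.69%, 17.9% and 22.8%. In fibroblasts, which should lack it, the share was 0.199%, 0.0677%, 0.663% and 0.7%, at median depths of 4260, 7523, 8089 and 6258 UMIs, below the share in capillary-marked barcodes of the same library. Stmn2 was detected in 11.3%, 10.9%, 10.7% and 0.833% of capillary-marked barcodes, whose median depths were 2218, 3487, 3497.5 and 3691.5 UMIs. Exactly 2 of the 6 genes were found in 157 (50%), 87 (48.6%), 187 (58.6%) and 26 (65%) members. In CLP the pair Sema3g and Stmn2 made up 93 of those 187, while in control it made up 40 of 157.

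**Figure D1:**
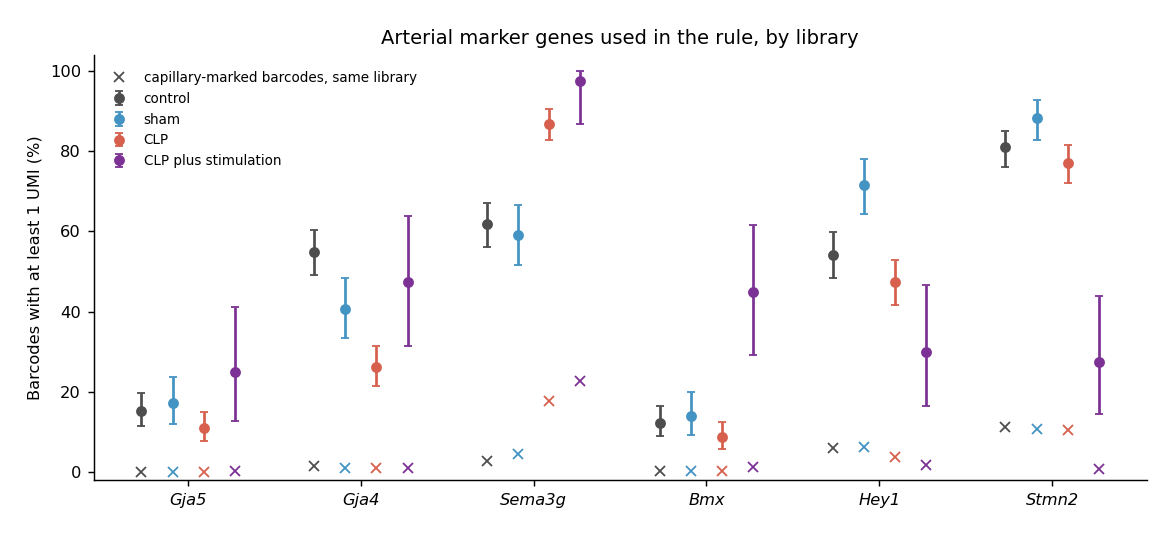
Percentage of barcodes with at least 1 UMI (vertical axis) of each of the 6 genes used by the rule (horizontal axis), with libraries shown by colour. Circles are arterial members with 95% Clopper-Pearson intervals and crosses are capillary-marked barcodes of the same library; Sema3g reached 97.5% of members in CLP plus stimulation, where Stmn2 was at 27.5%.

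One barcode of the CLP plus stimulation library stood apart. It held 84545 UMIs, 24.0% of all member UMIs of that library, against 18281 for the next deepest member. It carried 30 UMIs of the pan-leukocyte gene Ptprc, 239 of Ctsg, 143 of Prtn3, 126 of Elane and 65 of Mpo, the granule proteases and peroxidase of immature neutrophils. It had 2 UMIs of Pecam1 and 0 of Cdh5, and passed the rule through 1 UMI each of Gja4 and Bmx. The barcode was not among those marked as doublets. Without it the library held 39 members and 267003 UMIs, and values of this library without that barcode are given below in parentheses or named as such, while all others include it. In the other libraries the deepest member held 1.45%, 3.42% and 2.71% of the UMIs.

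Markers of other cells were present at levels that differed between libraries, and the neutrophil and erythroid sums were in some libraries not small beside that of the pan-endothelial genes. Summed over 8 neutrophil markers, members held 1946, 488, 4739 and 299 CPM, led by S100a8 and S100a9, against 179, 624, 5371 and 10569.9 in capillary-marked barcodes. The 5 erythroid genes summed to 2662, 23.1, 1950 and 5.69 CPM and the 8 cardiomyocyte genes to 1286, 1184, 1282 and 435 CPM. The 8 pericyte markers summed to 791, 503, 401 and 349.9 CPM, of which Rgs5 was the largest, with Kcnj8 at 0 by the rule. The 7 venous markers summed to 275, 163, 323 and 398 CPM, against 127, 136, 383 and 233 in capillary-marked barcodes. The 7 endocardial markers summed to 150, 67.5, 58.3 and 22.8 CPM, against 42.6, 40.2, 41.3 and 30.8, led in control by Cytl1 at 108 CPM. Macrophage markers summed to 279, 202, 105 and 236 CPM and T and NK cell markers to 11.1, 18.9, 0 and 45.5 CPM, with all 8 of the latter at 0 in CLP. The part of RNA from these cells in the results was not tested, and genes that lymphocytes of the same library held at a similar level are pointed out below.

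Members made up 2.01% (95% Clopper-Pearson interval 1.80 to 2.25) of kept barcodes in control, 2.0% (1.72 to 2.31) in sham, 3.83% (3.43 to 4.26) in CLP and 0.463% (0.331 to 0.630) in CLP plus stimulation. These and all intervals printed later beside a value describe counting error alone and hold no spread between hearts. Set against endothelial barcodes, the shares were 9.88% (308 of 3117), 11.4% (176 of 1550), 16.3% (316 of 1937) and 8.70% (40 of 460). The higher share in CLP depended on depth and on Sema3g. When every barcode was thinned to 1500 UMIs, with 39, 11, 18 and 0 members too shallow to enter, the shares of endothelial barcodes were 8.53%, 7.05%, 6.84% and 2.91%. With Sema3g dropped from the rule they were 7.73%, 9.55%, 8.52% and 3.26%. The CLP share was thus not above the sham share under either of these settings, and the CLP plus stimulation share was the lowest of the 4 under all 3, with only 11 members after thinning. With Stmn2 dropped instead, the shares were 6.38%, 6.71%, 9.96% and 8.04%, and the CLP plus stimulation share stood above control and sham.

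Members near the limit of the rule were compared with barcodes just outside it. Barcodes with a single arterial gene, which were not members, numbered 621, 318, 545 and 109. In control, Fbln5, the elastic-fibre protein fibulin-5, stood at 25.3 CPM in barcodes with 1 arterial gene, 142 in members with 2 and 369.6 in members with 3 or more. In CLP the same steps were 28, 63.7 and 217 CPM. Edn1, the vasoconstrictor endothelin-1, went from 45.5 to 162 and 379 CPM in control and from 22.6 to 40.7 and 145 CPM in CLP. Members with 2 arterial genes thus lay between the barcodes outside the rule and the members with 3 or more in both libraries, and for both genes nearer to the barcodes outside.

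The members were not uniform. In control, sham and CLP those with fewer than 2 capillary markers (45, 19 and 22) held far more RNA of large-artery matrix genes. Mgp, an inhibitor of vessel calcification, stood at 5690.4 CPM in these members of control, 1356 in sham and 6301 in CLP, against 228, 130.3 and 174 in members with 2 or more. Eln, the elastin of the vessel wall, stood at 1018, 508 and 1681 CPM against 38.3, 53.4 and 86.1. The secreted chaperone Clu followed the same order, at 1418, 692 and 679 CPM against 113, 70 and 31.6. Fabp4, a fatty acid binding protein of capillaries, ran the other way, at 4542, 3459 and 6709 CPM in the members with fewer capillary markers and 24019.5, 21599 and 33491 in the rest. The members with few capillary markers were also shallower, with median depths of 1799, 2016 and 1915 UMIs in these libraries, and the part of depth in this split was not tested. In control, Edn1 stood at 689 CPM in the members with few capillary markers against 247, and in CLP at 102 against 91.1. The venous marker Vwf stood at 309, 84.7 and 306 CPM in these members of control, sham and CLP against 36.5, 36.7 and 14.8. The endocardial marker Plvap stood at 79.9, 28.2 and 51 CPM against 4.68, 1.75 and 12.1. The venous marker Nr2f2, at 79.9, 14.1 and 0 CPM against 16.8, 35 and 30, was higher in control alone. CLP plus stimulation had 4 members with few capillary markers, and the barcode of 84545 UMIs held most of their 97547 UMIs. With that barcode included the order was the opposite. Mgp stood at 318 against 1366 CPM, Eln at 30.8 against 264 and Clu at 82 against 177. Levels in the other members of this set alone were not computed, so that order is not read as one of arterial cells.

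**Figure D2:**
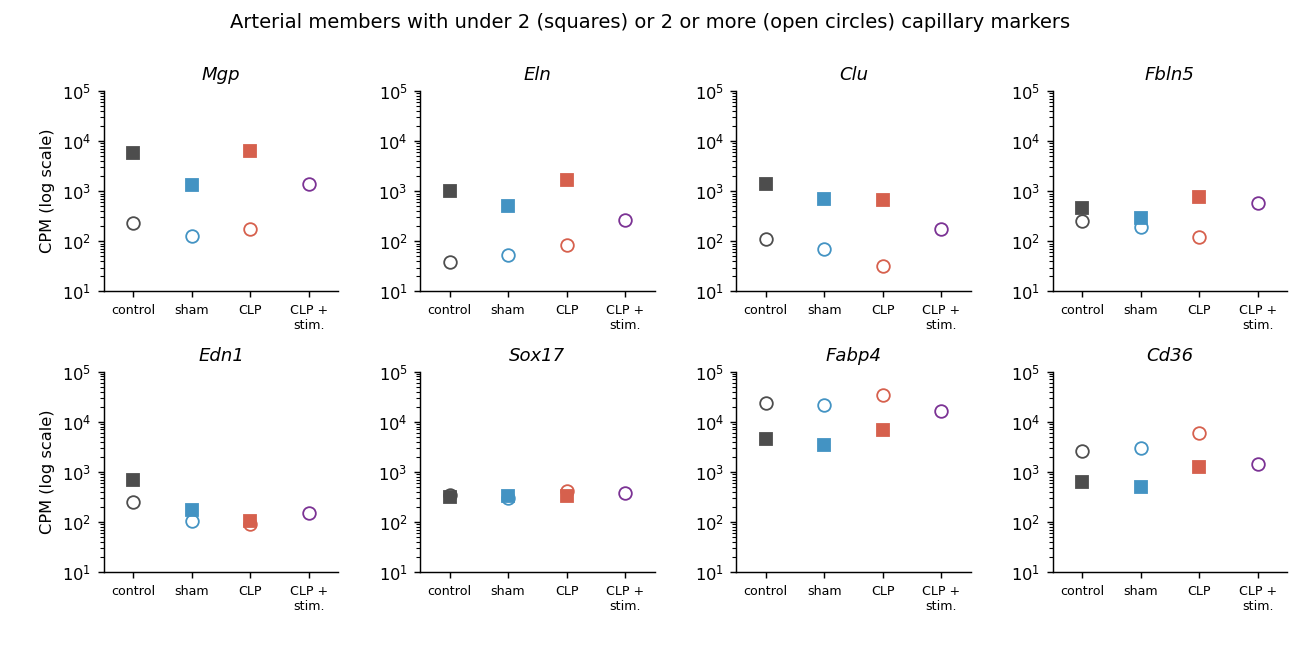
Levels of 8 genes in arterial members of each library (horizontal axis) on a log axis of CPM (vertical axis), for members with fewer than 2 capillary markers (squares) and with 2 or more (open circles). The squares of CLP plus stimulation are left out because they would hold 4 members. Mgp, Eln and Clu lie higher in the squares and Fabp4 lies higher in the circles in each library drawn.

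Gja5, which marks larger arteries, was detected in 48, 31, 35 and 10 members. Fbln5 in these stood at 525, 689, 440 and 668 CPM, against 219, 120.4, 102 and 356 in members without it. Mgp was likewise higher with Gja5 in each library, at 1266, 524, 576 and 3312 CPM against 578, 147, 279.6 and 423. Members with Bmx showed high levels as well, with Mgp at 2403, 560, 1002 and 1469.5 CPM and Fbln5 at 416, 440, 405 and 425 CPM, so that this pattern was not particular to Gja5.

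Against capillary-marked barcodes of the same library, members were set apart by a short list of genes that the rule did not use. These ratios describe sets that were themselves chosen by expression, so no test applies. Fbln5 (chromosome 12, 101746565 to 101819055, GRCm38) had log2 ratios of members over capillary-marked barcodes of 5.0, 5.06, 3.2 and 2.99 over the 4 libraries, where 1 stands for a doubling. Edn1 (chromosome 13, 42301476 to 42307990) had ratios of 4.15, 3.41, 2.6 and 2.15, and Fn1, the matrix protein fibronectin, 3.21, 3.47, 1.87 and 2.59. All 3 genes were higher in members in every library, with smaller ratios in CLP than in sham. Mgp had ratios of 3.2, 1.91, 1.71 and 4.41, the sialyltransferase gene St8sia6 2.87, 2.33, 1.32 and 1.76, Igf2, a growth factor, 2.44, 1.92, 1.36 and 3.95 and the IGF binding protein Igfbp4 2.44, 1.58, 1.06 and 3.73. Glul, the glutamine synthetase, had 2.0, 1.6, 1.0 and 0.99 and Gdf15, a stress-induced cytokine, 1.65, 1.75, 0.93 and 1.34. Rgs5 had 1.66, 1.16, 0.86 and 1.3, and it is also a pericyte gene that made up most of the summed pericyte markers given above. In CLP plus stimulation the member with most counts of the gene held 50% of them for Igfbp4, 49.5% for Rgs5 and 41.5% for Gdf15. Of 2177 genes with at least 50 CPM in members of all 4 libraries, 7 were at least 2-fold higher in members in each library, and of 2195 such genes in capillary-marked barcodes, 0 were at least 2-fold lower in members in each. The water channel Aqp1 was lower in members, with ratios of -2.65, -1.71, -0.62 and -2.32, as was the chemokine Cxcl9, with -2.48, -1.76, -0.79 and -3.72, and Fmo2, with -1.75, -0.89, -0.89 and -3.44.

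**Figure D3:**
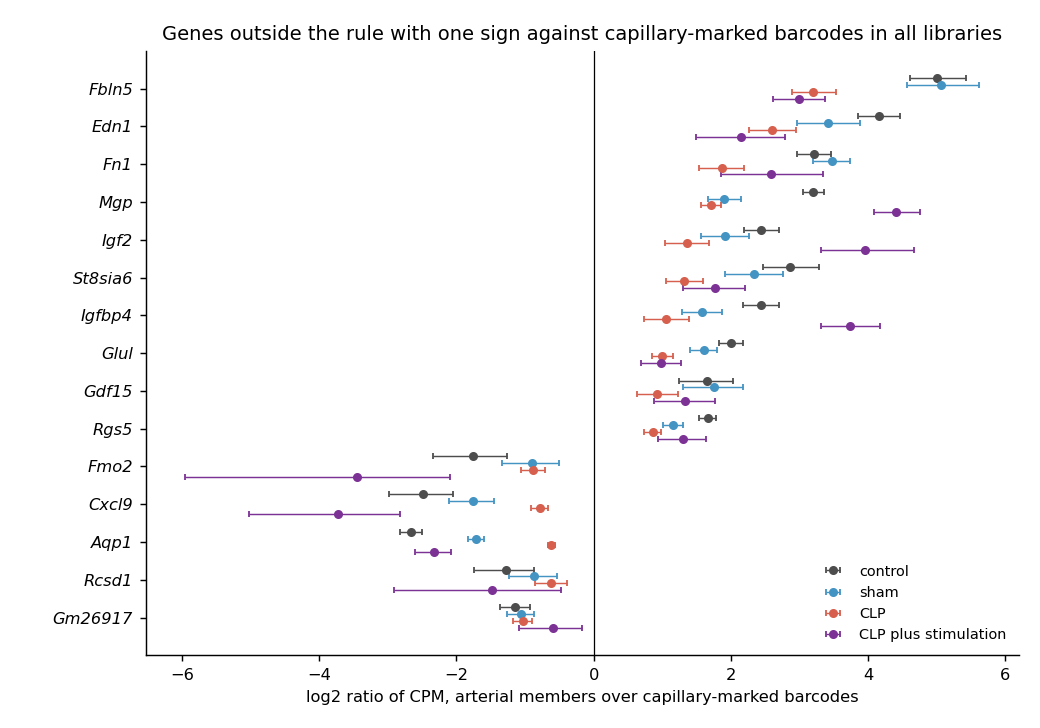
Log2 ratio of the summed level in arterial members over capillary-marked barcodes (horizontal axis) for 15 genes (vertical axis) that the rule did not use, by library, with 95% counting intervals. Fbln5 and Edn1 lie above 2 in all 4 libraries, and the 5 genes at the bottom lie below 0 in all 4.

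Other arterial genes from a list of 20 were mostly higher in members in control, sham and CLP. Of those measured, 18 of 20 were higher in members in control, 16 of 18 in sham, 16 of 19 in CLP and 11 of 17 in CLP plus stimulation, where 51.4%, 53.4%, 54.4% and 55.4% of all genes measured were higher. The count in CLP plus stimulation was near that of all genes. Their median log2 ratio over capillary-marked barcodes was 1.40, 1.34, 0.63 and 0.82, beside 0.017, 0.034, 0.029 and 0.072 for all genes measured. Notch pathway genes as a group hardly differed from the rest, with medians of 0.028, 0.13, 0.14 and 0.031. Alpl, the alkaline phosphatase used to stain small arteries, stood at 307 CPM in members and 34 in capillary-marked barcodes of control, and at 32 and 6.8 in CLP. Sox17, a SoxF factor of arteries, stood at 344, 301, 416 and 276 CPM in members, against 101, 91.9, 217 and 294 in capillary-marked barcodes.

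Few genes were far apart between sham and control members. Of 8532 genes with at least 20 counts over both libraries, 366 (4.29%) were at least 2-fold apart, 196 (2.3%) higher and 170 (1.99%) lower in sham, and the median log2 ratio was 0.067. Immediate early genes, transcription factors that are known to respond fast to stress and to tissue handling, were lower in sham: 0 of 17 were above a ratio of 0, where 57.1% of all genes were, and their median was -0.59. Fos stood at 4316 CPM in control and 2721 in sham, and Egr1 at 2609 and 1536. The stress transcription factor Atf3 stood at 1380 and 548 CPM, a log2 ratio of -1.33 (95% interval -1.47 to -1.2). Capillary-marked barcodes gave a median of -0.44 for the same list, in the same direction as the arterial members.

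Clock genes were higher in sham, with 11 of 14 above 0 and a median of 0.53. Dbp, a clock output gene with a strong daily rhythm, stood at 50.4 CPM in control and 148 in sham, a log2 ratio of 1.55 (95% interval 1.12 to 2.01). Glucocorticoid-responsive genes were lower, with 3 of 18 above 0 and a median of -0.41, led by the cell cycle inhibitor Cdkn1a, at 502 and 211 CPM. Edn1 was lower in sham, at 109 CPM against 285, a log2 ratio of -1.39 (95% interval -1.69 to -1.09). Among the arterial list, Cytl1, which was also listed as an endocardial marker, had the lowest ratio, -3.79, and Mgp was at 202 CPM against 696. Both stood far higher in the 45 control members with few capillary markers than in the other control members, at 1058 against 18.7 CPM for Cytl1, and sham was lower within each of these sets, at 84.7 and 2.62 CPM. The apelin receptor gene Aplnr, by contrast, was higher in sham, at 152 CPM against 49.6, as was Igfbp5, at 276 against 53.9, although 205 of its 335 counts in sham sat in 1 barcode. The motor protein gene Myo1d had a log2 ratio of 1.66, Nav3 1.61 and Fxyd6, which regulates the sodium pump, 1.56. On the lower side, the BMP pseudoreceptor gene Bambi had -1.69, the retinoic acid hydroxylase gene Cyp26b1 -1.41 and the CDK inhibitor gene Cdkn2d -1.09.

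CLP members held more RNA of leukocyte recruitment, interferon, glucocorticoid and acute-phase genes than sham members, and less of arterial, angiogenic and clock genes. Of 9537 genes measured, 1001 (10.5%) were at least 2-fold apart, 450 (4.72%) higher and 551 (5.78%) lower in CLP, and 38.5% had a ratio above 0, with a median of -0.14. Capillary-marked barcodes had 11.8% of genes at least 2-fold apart in the same pair of libraries.

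**Figure D4:**
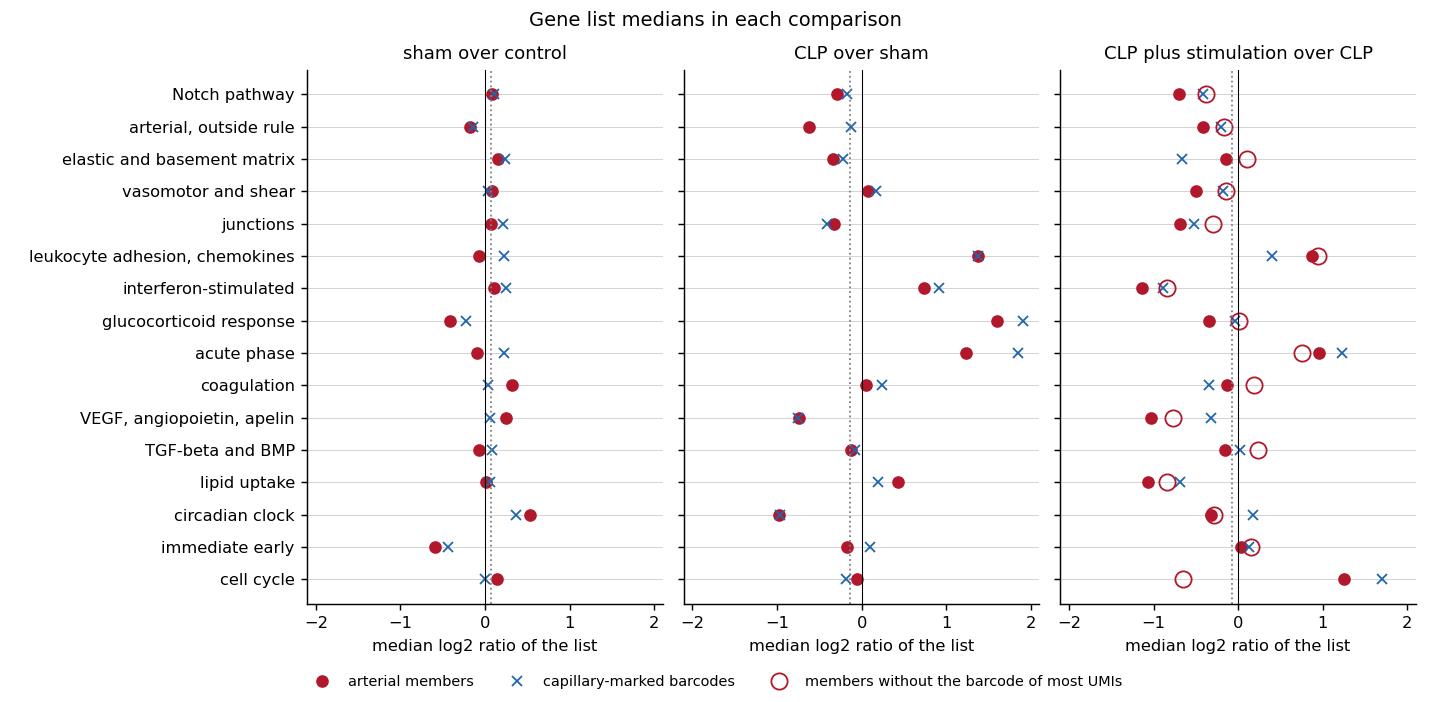
Median log2 ratio (horizontal axis) of 16 gene lists (vertical axis) in the 3 comparisons, for arterial members (red circles) and capillary-marked barcodes (blue crosses); open circles in the stimulation panel leave out the barcode with most UMIs, and the dotted line is the median of all genes. In CLP over sham the glucocorticoid list lies at 1.61 and the interferon list at 0.74, and in CLP plus stimulation over CLP the interferon list lies at -1.14.

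Adhesion molecules and chemokines were higher as a group, with 13 of 17 above 0, 10 at least 2-fold higher and 0 at least 2-fold lower (median 1.38, also 1.38 in capillary-marked barcodes). Icam1 (chromosome 9, 21015985 to 21028817), which leukocyte integrins bind for firm adhesion, stood at 201 in control, 166 in sham, 660.3 in CLP and 1437 with stimulation, in CPM. CLP was above both sham and control, with a log2 ratio over sham of 1.99 (95% interval 1.78 to 2.21). Vcam1, a second integrin ligand, stood at 42.8, 28, 218 and 262 CPM in the same order, a ratio of 2.94 (95% interval 2.46 to 3.5). Sele, the E-selectin on which leukocytes roll, had 24 counts in CLP and 0 in sham, which is at least 3.7-fold higher. The neutrophil chemokine gene Cxcl1 stood at 102, 78.3, 219 and 856 CPM. In the CLP library lymphocytes held 253 CPM, found in 11.3% of only 53 barcodes, neutrophils 13.4, macrophages 184 and fibroblasts 1210. Its CLP level is not read as expression by arterial cells, and the part of RNA from other cells in it was not tested. In CLP plus stimulation lymphocytes held 72.9 CPM. Levels in members exceeded those in CLP lymphocytes for Icam1 (110 CPM in lymphocytes) and Vcam1 (2.39). Csf1, the macrophage growth factor, stood at 20.5, 35.4, 177 and 319 CPM. The lowest ratios of the list belonged to these genes: Selp, with a ratio of -0.84, and Cxcl12, the ligand of Cxcr4, with -0.63.

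Interferon-stimulated genes were all higher in CLP than in sham: 36 of 36 measured had a ratio above 0, and 13 were at least 2-fold higher (median 0.74, capillary-marked 0.91). Irf7 (chromosome 7, 141262706 to 141266481), the transcription factor that amplifies the type I interferon response, stood at 139 in control, 133 in sham, 566 in CLP and 159 with stimulation, in CPM, a ratio of CLP over sham of 2.08 (95% interval 1.85 to 2.33). Igtp, an interferon-gamma-induced GTPase, stood at 23.1, 27.2, 131 and 65.4 CPM, a ratio of 2.25 (95% interval 1.76 to 2.83). Zbp1, a sensor of left-handed nucleic acid, had a ratio of 2.33, at 43.4 CPM in CLP members against 62.2 in lymphocytes. The smallest ratios were those of Cmpk2, 0.12, and Ifih1, 0.31. Isg15, a ubiquitin-like modifier, had 0.74, Rsad2, the antiviral protein viperin, 0.97, Ifit1, which binds foreign RNA, 1.34 and Gbp7, a guanylate-binding protein, 0.80.

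Promoters were read for these lists because many of their members were higher together in CLP. The window was the 250 bases before each RefSeq transcription start (GRCm38.p6), and it was searched on both strands, with overlapping matches counted. The letters GAAANNGAAA, a core form of the interferon-stimulated response element, were found in 14 of the 31 windows of interferon genes (45.2%, in 14 of the 26 genes with a window, of 36 in the list), against 978 of 32851 windows of the same length (2.98%). A match is a description and not a binding site. In 5 examples the match is in capitals, and each is given 5' to 3' on the gene's strand, where a match on the other strand reads TTTCNNTTTC:
Igtp, GRCm38.p6 chr11:58199306-58199555, plus strand: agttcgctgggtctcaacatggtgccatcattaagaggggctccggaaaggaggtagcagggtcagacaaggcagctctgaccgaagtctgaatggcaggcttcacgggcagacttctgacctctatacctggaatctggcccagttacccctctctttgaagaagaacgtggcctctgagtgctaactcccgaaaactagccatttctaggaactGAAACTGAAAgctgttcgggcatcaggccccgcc
Gbp7, GRCm38.p6 chr3:142530086-142530335, plus strand: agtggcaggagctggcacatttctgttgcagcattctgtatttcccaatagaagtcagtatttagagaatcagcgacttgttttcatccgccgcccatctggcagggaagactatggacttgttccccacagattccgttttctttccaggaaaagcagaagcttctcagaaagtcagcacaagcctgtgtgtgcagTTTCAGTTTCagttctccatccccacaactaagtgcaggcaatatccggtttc
Ifit1, GRCm38.p6 chr19:34640639-34640888, plus strand: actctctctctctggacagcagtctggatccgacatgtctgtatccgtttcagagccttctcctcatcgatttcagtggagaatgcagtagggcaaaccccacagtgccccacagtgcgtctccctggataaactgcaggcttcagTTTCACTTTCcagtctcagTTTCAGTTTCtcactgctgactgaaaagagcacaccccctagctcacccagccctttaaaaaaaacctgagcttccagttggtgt
Isg15, GRCm38.p6 chr4:156200819-156201068, minus strand: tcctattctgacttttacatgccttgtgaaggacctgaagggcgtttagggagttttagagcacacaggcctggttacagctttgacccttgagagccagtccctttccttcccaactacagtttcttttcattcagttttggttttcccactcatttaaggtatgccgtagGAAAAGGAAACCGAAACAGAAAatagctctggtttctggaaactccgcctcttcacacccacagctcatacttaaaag
Rsad2, GRCm38.p6 chr12:26456453-26456702, minus strand: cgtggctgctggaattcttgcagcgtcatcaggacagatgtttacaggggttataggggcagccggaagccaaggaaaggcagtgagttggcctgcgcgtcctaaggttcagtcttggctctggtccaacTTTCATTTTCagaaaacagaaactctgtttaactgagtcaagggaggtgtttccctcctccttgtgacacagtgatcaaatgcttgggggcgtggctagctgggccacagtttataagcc
Ifit1 holds 2 matches and Isg15 3 that overlap. The log2 ratios of CLP over sham for the 5 genes were 2.25 for Igtp, 0.80 for Gbp7, 1.34 for Ifit1, 0.74 for Isg15 and 0.97 for Rsad2.

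Glucocorticoid-responsive genes were also higher in CLP, with 16 of 21 above 0, 13 at least 2-fold higher and 1 at least 2-fold lower (median 1.61, capillary-marked 1.91). Fkbp5 (chromosome 17, 28399094 to 28517527), a chaperone that feeds back on the glucocorticoid receptor, stood at 5.13 in control, 6.59 in sham, 121 in CLP and 156 with stimulation, in CPM, a ratio of CLP over sham of 4.11 (95% interval 3.2 to 5.42). It was detected in 47.6% of CLP members and 3.91% of sham members, against 26.4% of CLP lymphocytes, whose median depth was 5274 UMIs beside 5613 in CLP members. Zbtb16, a zinc finger gene that steroid hormones are known to induce, stood at 7.7, 2.47, 70.8 and 28.4 CPM, a ratio of 4.62 (95% interval 3.27 to 7.13). Fam107a, an actin-associated stress gene, stood at 18, 16.5, 145 and 65.4 CPM, a ratio of 3.1, and Sgk1, a kinase induced by corticosteroids, at 674, 550.3, 1012 and 794 CPM. Control and sham were both far below CLP for Fkbp5, Zbtb16 and Fam107a. The lowest ratio of the list was that of the growth inhibitor Cdkn1c, -1.19.

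A palindromic form of the glucocorticoid receptor element, GNACANNNTGTNC, was found in 4 of the 29 windows of glucocorticoid genes (13.8%, in 3 of the 17 genes with an entry, of 22 in the list), against 127 of 32851 windows (0.387%). A window of each of the 3 genes is given because it holds that match, in capitals:
Fam107a, GRCm38.p6 chr14:8309780-8310029, minus strand: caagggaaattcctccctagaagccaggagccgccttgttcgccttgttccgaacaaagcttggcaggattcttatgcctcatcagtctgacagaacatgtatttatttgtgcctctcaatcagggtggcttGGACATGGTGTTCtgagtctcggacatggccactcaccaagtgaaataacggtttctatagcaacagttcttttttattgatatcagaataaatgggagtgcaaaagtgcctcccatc
Sgk1, GRCm38.p6 chr10:21993640-21993889, plus strand: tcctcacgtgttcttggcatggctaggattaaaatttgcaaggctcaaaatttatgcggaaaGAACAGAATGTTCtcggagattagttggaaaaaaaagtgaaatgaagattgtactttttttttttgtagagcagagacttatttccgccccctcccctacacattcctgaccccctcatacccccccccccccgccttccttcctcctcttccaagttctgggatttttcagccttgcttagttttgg
Mt1, GRCm38.p6 chr8:94178839-94179088, plus strand: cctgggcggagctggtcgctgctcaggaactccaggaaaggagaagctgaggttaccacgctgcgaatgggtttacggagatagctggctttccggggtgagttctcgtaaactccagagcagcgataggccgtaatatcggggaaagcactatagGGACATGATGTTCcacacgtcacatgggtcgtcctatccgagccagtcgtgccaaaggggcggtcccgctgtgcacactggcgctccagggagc
Mt1 encodes metallothionein-1, a binder of zinc. The ratios of CLP over sham were 3.1 for Fam107a, 0.88 for Sgk1 and 1.61 for Mt1.

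Acute-phase genes were higher too, with 16 of 19 above 0 and 12 at least 2-fold higher (median 1.24, capillary-marked 1.85). For some of them the level in members did not exceed that of lymphocytes of the same library, which are not known to make them. Saa3, serum amyloid A3, was listed at 0 in control and sham and stood at 1040.3 CPM in CLP members, where lymphocytes held 2032 CPM and macrophages 53672. Lcn2, an iron-scavenging protein, stood at 638 CPM in CLP members and 3171 in CLP lymphocytes. Both are at or below that background and are not read as expression by arterial cells. Lrg1, a secreted glycoprotein of inflamed endothelium, had a ratio of 2.82, but its 78.4 CPM in CLP members stood below the 258 in CLP lymphocytes. The transglutaminase Tgm2, which belongs to the glucocorticoid list and not to this one, stood at 124 CPM in sham and 654 in CLP.

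Arterial genes other than those of the rule were lower in CLP. Of 19 measured, 3 were above 0, 0 were at least 2-fold higher and 7 at least 2-fold lower, with a median of -0.62 in members and -0.13 in capillary-marked barcodes. The same median was -0.77 in members with at least 3 arterial genes and -0.63 with Sema3g dropped from the rule. Alpl (chromosome 4, 137741733 to 137796384) stood at 307 in control, 222 in sham, 32 in CLP and 22.8 with stimulation, in CPM. Both CLP libraries were below both libraries without CLP, and the ratio of CLP over sham was -2.79 (95% interval -3.17 to -2.44). Cxcr4, the receptor of Cxcl12, stood at 56.4, 119, 11.8 and 34.1 CPM in the same order, a ratio of -3.32 (95% interval -3.95 to -2.77). Unc5b, a netrin receptor of arterial endothelium, stood at 97.5, 152, 25.5 and 22.8 CPM, a ratio of -2.57. Alpl, Cxcr4 and Unc5b were also lower in capillary-marked barcodes, with ratios of -2.2, -1.95 and -2.19. Of 19 genes of the list measured there, 9 were above 0, 4 at least 2-fold higher and 3 at least 2-fold lower. Efnb2, the ephrin ligand that distinguishes arteries from veins, stood at 271, 315, 126 and 142 CPM, a ratio of -1.32. Tm4sf1, a membrane protein of endothelium, had -1.16 and Vegfc, the lymphatic growth factor, -2.01. Sox17 went the other way, with 0.46. Clu stood at 106 CPM in sham and 46.1 in CLP, and Fbln5 at 203 and 138. With each member weighted equally, Fbln5 stood at 257 CPM in sham and 254 in CLP. In members with fewer than 2 capillary markers Fbln5 was higher in CLP, at 764 CPM against 297, and in the other members lower, at 124 against 197. For Clu and Fbln5 capillary-marked barcodes went the opposite way, and that difference was not tested.

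Notch pathway genes as a group lay near the other genes. Of 13 measured 4 were above 0, where 38.5% of all genes were, and 0 were at least 2-fold apart (median -0.28, beside -0.14 for all genes). The ligand Dll4 stood at 196 in control, 152 in sham, 83.8 in CLP and 154 with stimulation, in CPM, a ratio of CLP over sham of -0.86 (95% interval -1.15 to -0.57). The receptor Notch1 had -0.78 (95% interval -0.99 to -0.56), the ligand Jag1 -0.70 and Jag2 -0.28, whereas Notch4 had 0.015 and Dll1, another ligand, 0.40. Of the genes given here with an interval, Dll4 and Notch1 were lower in CLP beyond counting error. The rule's own Notch target Hey1 is not counted here. Over the 4 libraries the target Hes1 stood at 407, 355, 387 and 210.5 CPM, the feedback inhibitor Nrarp at 148, 126, 98.6 and 145 CPM and the nuclear effector Rbpj at 48.7, 52.7, 33.5 and 59.7 CPM. Mfng, which modifies Notch receptors, stood at 60.7, 54.4, 70.1 and 74 CPM and the inhibitor Numb at 49.6, 78.3, 74.6 and 42.7 CPM. Notch2, Hey2, Heyl, Lfng and Rfng were at 11.4 CPM or less in every library.

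Genes of VEGF, angiopoietin and apelin signalling were lower, with 5 of 18 above 0 and 8 at least 2-fold lower (median -0.73, capillary-marked -0.76). The main VEGF receptor gene Kdr stood at 783, 1149.9, 483 and 236 CPM over the 4 libraries, a ratio of CLP over sham of -1.25 (95% interval -1.36 to -1.14). Apln and Angpt2, which mark sprouting tip cells, had -3.59 and -3.44, from 19 and 17 counts in sham and 3 and 3 in CLP. Plxnd1, a semaphorin receptor, had -1.63. Vegfa and Pgf had the highest ratios, 0.85 and 0.85.

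Genes of lipid uptake had a mixed pattern, with 10 of 18 above 0, 4 at least 2-fold higher and 1 at least 2-fold lower (median 0.43, capillary-marked 0.19). Lpl (chromosome 8, 68880491 to 68907448), the lipase that frees fatty acids from circulating triglyceride, stood at 229 in control, 376 in sham, 3708 in CLP and 816 with stimulation, in CPM. CLP was far above the other libraries, with a ratio over sham of 3.3 (95% interval 3.16 to 3.44), and Lpl was detected in 295 of 319 CLP members and 105 of 179 sham members. In capillary-marked barcodes the ratio of Lpl was 2.93. Gpihbp1, which carries that lipase across the capillary wall, stood at 978, 958, 2993 and 1687 CPM, and Angptl4, its inhibitor, had a ratio of 2.06. The 5 capillary markers, Gpihbp1 among them, summed to 3742, 3255, 6768 and 2921 CPM in members over the 4 libraries. In capillary-marked barcodes, which were chosen by these markers, the sums were 5127, 3643, 6731 and 5100 CPM. The fatty acid carrier Cd36 stood at 2429, 2878, 5734 and 1112 CPM and Fabp4 at 22351, 20541, 32891 and 12584 CPM. Both were highest in CLP and lowest in CLP plus stimulation. Aqp7, a glycerol channel, had a ratio of -1.29.

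Clock genes were lower in CLP, with 5 of 15 above 0 and 7 at least 2-fold lower (median -0.97, capillary-marked -0.96). Dbp stood at 50.4, 148, 12.9 and 5.69 CPM, a ratio of CLP over sham of -3.5 (95% interval -4.09 to -2.98), and Nr1d1, the clock repressor REV-ERB alpha, at 133, 180.4, 47.2 and 19.9 CPM. Per2, which had few counts, had 2.24 and Per3 -2.25. Hour of sampling was not given, and its part in the clock genes was not tested.

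Some genes outside the lists were also far apart between CLP and sham. Spock2, a matrix proteoglycan, stood at 4.28, 3.29, 134 and 14.2 CPM, a ratio of 5.18 (95% interval 3.98 to 7.23). CLP was the highest of the 4 libraries. Uchl1, a deubiquitinating enzyme, stood at 8.55, 9.88, 105 and 156 CPM, a ratio of 3.36, and Tmem252, a membrane protein, at 22.2, 11.5, 120.3 and 444 CPM, a ratio of 3.33. Both were high in the 2 CLP libraries and low in the other 2. Tbxa2r, the thromboxane receptor, was lower in CLP, at 100, 89.8, 13.3 and 2.84 CPM, a ratio of -2.74. Igfbp5 was at 18.7 CPM in CLP against 276 in sham, with most of the sham counts in 1 barcode as given above.

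CLP plus stimulation members differed from CLP members in more genes, on far fewer cells. Of 8904 genes measured, 3056 (34.3%) were at least 2-fold apart, 1234 (13.9%) higher and 1822 (20.5%) lower, and 47.1% were above 0 (median -0.073). With the deepest barcode of each library left out, 1033 of 8705 genes (11.9%) were at least 2-fold higher and 1728 (19.9%) lower. Capillary-marked barcodes had 30.2% of genes at least 2-fold apart. The 6 highest genes with all 40 members, Ctsg, Elane, Mpo, Prtn3, Gzmb and Phgdh, had nearly all their counts in the barcode of 84545 UMIs, which held 239 of 239, 126 of 127, 65 of 65, 143 of 144, 44 of 44 and 27 of 27 of them in that order. In capillary-marked barcodes the ratios of these genes were 10.8, 8.63, 10.7, 9.05, -1.69 and 5.67 in the same order. The deepest capillary-marked barcode of the stimulated library held 78507 UMIs. No barcode was left out of the capillary-marked values.

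Interferon-stimulated genes were lower with stimulation, with 1 of 36 above 0 and 21 at least 2-fold lower (median -1.14), or 5 of 36 above 0 (46.5% of all genes) and 17 at least 2-fold lower without the deepest barcode of each library (median -0.84). Capillary-marked barcodes gave -0.89. Irf7 stood at 566 CPM in CLP and 159 with stimulation, or 206 without that barcode, a ratio of -1.82 (95% interval -2.24 to -1.44). Gbp7 stood at 334 and 54 CPM (67.4), below sham at 191, and Rsad2 at 442 and 76.8 (97.4), below sham at 226. Ifi44 had the lowest ratio, -3.69. Isg15 stood close to its CLP level, at 626 CPM against 706, and 775 without the barcode. The median of the list was -0.28 after thinning to 1500 UMIs, where 11 members of the stimulated library were left.

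Leukocyte adhesion and chemokine genes were, in contrast, mostly as high or higher with stimulation. Of 18 measured, 14 were above 0, 8 at least 2-fold higher and 4 at least 2-fold lower (median 0.87), and without the deepest barcodes 12 were above 0 (median 0.94). Icam1 stood at 1437 CPM (1873 without the barcode) against 660.3 in CLP, and Cxcl1 at 856 (1127) against 219. Vcam1 stood at 262 CPM (345) against 218, a ratio of 0.27 (95% interval -0.069 to 0.58). The lowest ratios were those of Cxcl9, an interferon-gamma-induced chemokine, at 22.8 CPM (30) against 233, and of Cxcl12, at 191 (251) against 1766. Csf3, the granulocyte growth factor, stood at 191 CPM against 1.9, but 59 of its 67 counts sat in 1 member.

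A high ratio spread over many members was that of Inhbb (chromosome 1, 119415465 to 119422248), which encodes a subunit of activin B and inhibin B. It stood at 0.855 in control, 0.824 in sham, 4.19 in CLP and 333 with stimulation, in CPM, and at 438 without the deepest barcode. It was detected in 75% of stimulated members, and the ratio over CLP was 6.25 (95% interval 5.42 to 7.35). The metallothionein genes Mt1 and Mt2 were also higher: Mt1 stood at 269, 121, 369.7 and 9765 CPM and 12179.6 without the barcode, a ratio of 4.72 (95% interval 4.62 to 4.83), and Mt2 at 45.3, 26.4, 153 and 3689 CPM and 4693. Lymphocytes of the stimulated library held 1597 CPM of Mt1 and neutrophils 1164, so members stood above both. Lcn2 stood at 10758 CPM (14052) in stimulated members, above 3108 in lymphocytes and 6331 in macrophages and beside 13473 in neutrophils of that library. Sh2d5, an adaptor protein gene, had 22 counts without the deepest barcode against 0 in CLP, at least 70.2-fold higher. Plaur, the urokinase receptor, stood at 637 CPM (828) against 48.7, with 861 in neutrophils.

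Glucocorticoid-responsive genes as a group had a median of -0.35, or 0.012 without the deepest barcodes, with 9 and 11 of 21 above 0. Fkbp5 stood at 156 CPM (187) against 121 in CLP, and Zbtb16 at 28.4 (37.5) against 70.8. Fam107a stood at 65.4 CPM (86.1) against 145. All 3 were above the sham values given above, with Zbtb16 and Fam107a lower than in CLP. Sult1a1, a sulfotransferase, had the lowest ratio, -3.61, and Cdkn1a, at 2813 CPM (3528) against 1376, was higher.

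Lipid uptake genes were lower with stimulation, with 4 of 18 above 0 and 11 at least 2-fold lower (median -1.07), or 8 at least 2-fold lower without the deepest barcodes (median -0.84). Lpl stood at 816 CPM (1045) against 3708 in CLP, a ratio of -2.18 (95% interval -2.36 to -2.01), and was still above sham at 376. Cd36 stood at 1112 (1464) against 5734, below sham at 2878. Aqp7 had 0 counts against 310 in CLP, at least 13.8-fold lower, and Bmp6, a bone morphogenetic protein, 0 against 237, at least 10.6-fold lower. Cav1, the coat protein of caveolae, stood at 151 CPM (199) against 1429. Further low genes were C1qtnf9, an adipokine-like secreted protein, with -5.97, Thrsp, a lipogenesis gene, with -5.73, the transporter-like gene Slc26a10 with -5.32, and Vwa3a, with 0 counts against 140.

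Arterial genes of the list had a median of -0.41, with 8 of 19 above 0, or -0.17 with 9 of 19 above 0 without the deepest barcodes. Alpl stood at 22.8 CPM (30), no higher than in CLP, and Efnb2 at 142 (187) against 126. Cxcr4 stood at 34.1 CPM with all members and 7.49 without the barcode, against 11.8 in CLP. Fbln5 and Clu had the highest ratios, 1.63 (95% interval 1.34 to 1.9) and 1.72 (95% interval 1.22 to 2.19). Mgp stood at 1075 CPM (1412) against 311, and Lox, a cross-linker of elastin and collagen, at 56.9 (74.9) against 4.95. The lowest ratios were those of Cxcl12 and of Nrp1, a VEGF and semaphorin co-receptor, which stood at 42.7 CPM (56.2) against 380.

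Notch pathway genes split, with 5 of 12 above 0 and a median of -0.70 (-0.38 without the deepest barcodes, and 0.69 after thinning). Dll4 stood at 154 CPM (202) against 83.8, a ratio of 0.88 (95% interval 0.42 to 1.31), and Notch1 at 213 (258) against 152. Jag1 stood at 14.2 CPM (18.7) against 62.4 and Jag2 at 37 (48.7) against 116. The ligand Dll4 was thus near its sham level of 152 CPM, while the Jagged ligands were below theirs.

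**Figure D5:**
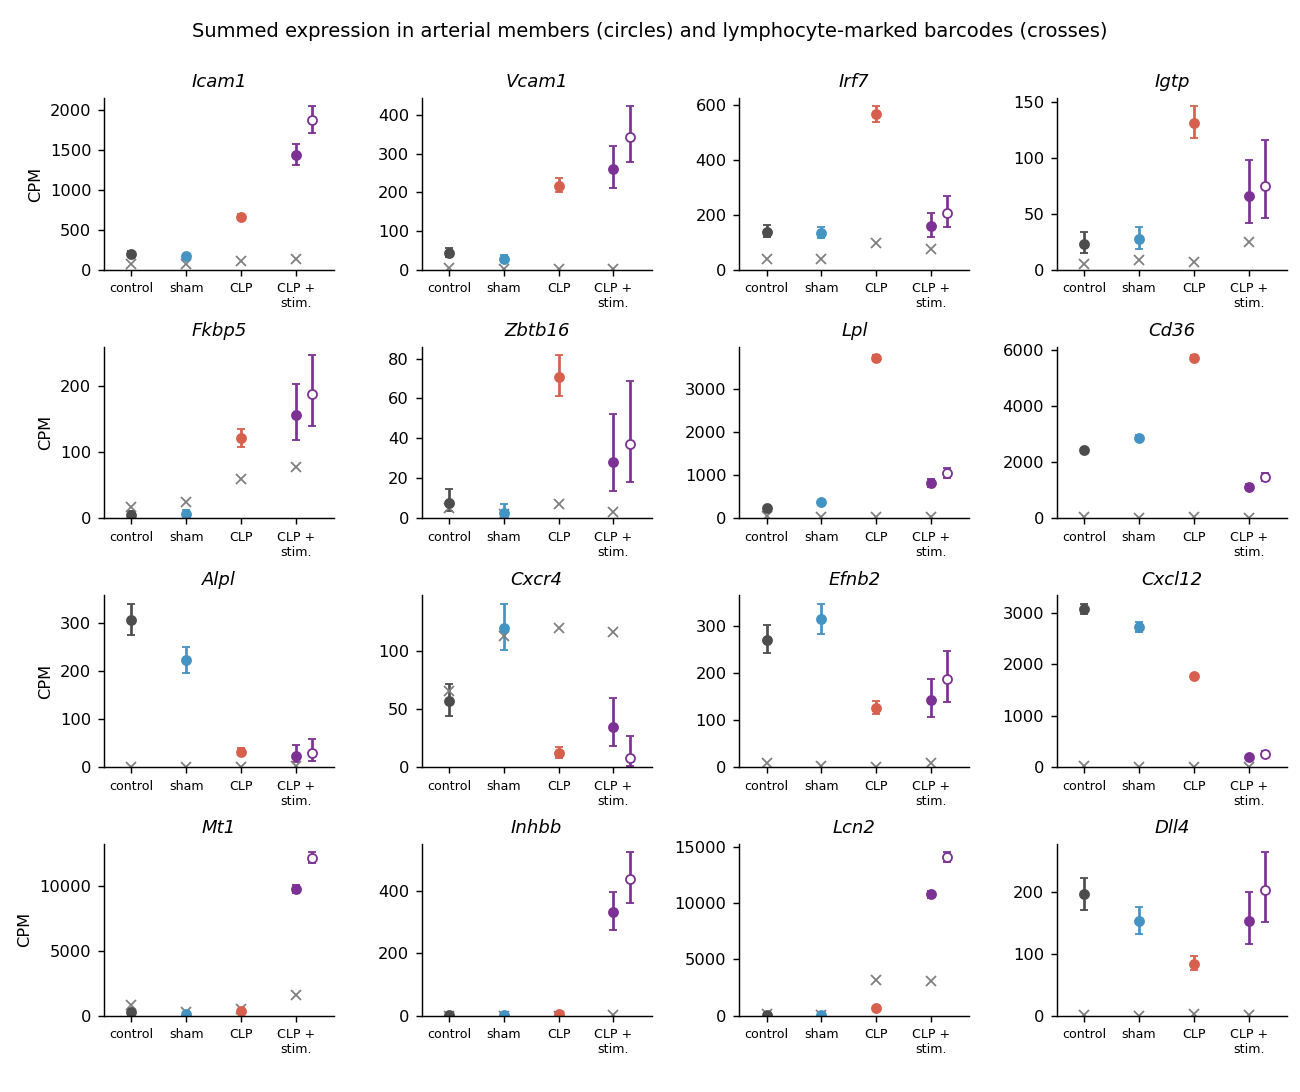
Levels of 16 genes in CPM (vertical axis, from 0) in arterial members of each library (horizontal axis), as circles with 95% Poisson intervals; open purple circles leave out the barcode with most UMIs and grey crosses are lymphocytes of the same library. Icam1 is highest in CLP plus stimulation, Irf7 and Lpl are highest in CLP, and Alpl is low in both CLP libraries.

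Genes of VEGF, angiopoietin and apelin signalling were lower again, with 4 of 15 above 0 and 9 at least 2-fold lower (median -1.03, or -0.77 without the deepest barcodes). Kdr stood at 236 CPM (311) against 483. Aplnr had 0 counts against 80, at least 3.57-fold lower. Pgf, placental growth factor, went the other way, at 148 CPM (195) against 22.8. Cell cycle genes had a median of 1.25 with all 40 members and -0.65 without the deepest barcodes, and the direction changed when these were left out. Among capillary-marked barcodes, with none left out, 20 of 20 cell cycle genes were above 0 and 15 at least 2-fold higher (median 1.70). The deepest stimulated barcode held 9 UMIs of the proliferation gene Mki67.

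Acute-phase genes were mostly higher with stimulation, with 13 of 19 above 0, 9 at least 2-fold higher and 2 at least 2-fold lower (median 0.96, or 0.75 with 15 above 0 without the deepest barcodes and 0.050 with Sema3g dropped from the rule). Clock genes had 3 of 13 above 0 and a median of -0.32 (-0.29), and immediate early genes 10 of 18 above 0 and a median of 0.031 (0.15). Matrix genes had 7 of 20 above 0 and a median of -0.14, against 11 of 20 and 0.11 without those barcodes.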

How the data were processed

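RNA of all cells of the heart was measured in 4 mouse libraries, 1 per group, with groups taken from the labels. Raw UMI counts of 32285 genes were deposited for each barcode. Per the file headers the authors produced them with Cell Ranger 5.0.0, and the submitters' processing notes name STAR and mm10. Barcodes needed 500 UMIs, 200 genes and at most 20% mitochondrial UMIs, which kept 41542 of 43074. Doublets were scored with Scrublet in scanpy 1.11.5 and the top 0.8% per 1000 barcodes were marked but kept (13, 2, 8 and 1 members), and a setting without them was run.

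Members' counts were summed per library and scaled to CPM, with exact Poisson intervals. Ratios on the log2 scale took a prior count of 0.5 and exact conditional binomial 95% intervals, and genes with at least 20 counts over both libraries entered. A gene was counted as apart at 2-fold. Lists were summarised by the median ratio of their measured members. Where a library held no count of a gene, 3 counts stood in its place, which moved 0 of the 48 list medians. On simulated data with known ratios the intervals were checked for coverage. The scaling alternative used TMM factors from edgeR 4.0.16.

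The members and lists were chosen with earlier results of these data known. The rule for named genes took the 6 highest and 6 lowest ratios in each comparison among genes of 50 CPM or more and 20 counts or more on the higher side. It passed over marker genes of other cells and genes over 5 times higher in another cell class, and added the 2 highest and 2 lowest of each list, the Notch list in full, and for the contrast with capillary-marked barcodes the 10 highest and 5 lowest genes. A further 38 genes, such as Icam1, Irf7, Cd36, Efnb2 and Sgk1, were named after their values had been seen. Genes that the rule takes from the lists are printed in part, and 1 of them is not reported here. Gene coordinates are those of GENCODE vM21 on GRCm38, and promoters were taken from RefSeq on GRCm38.p6.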

Additional observations from a re-analysis of the deposited data

Results flagged for a closer look

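A set of 6 genes went one way in arterial members and the opposite way in capillary-marked barcodes of the same libraries, with counting intervals of both on opposite sides of 0. The difference itself was not tested in any of them. In CLP over sham, Clu had a log2 ratio of -1.21 in members and 1.04 in capillary-marked barcodes, and Fbln5 had -0.55 and 1.31. For both genes the members still held more than the capillary-marked barcodes in CLP. With members weighted equally, Fbln5 hardly differed, at 257 CPM in sham members and 254 in CLP members. In CLP plus stimulation over CLP, Eln had 0.72 in members (1.08 without the deepest barcodes) and -2.8 in capillary-marked barcodes, and Mgp had 1.79 (2.15) and -0.90.

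In the other 2 cases 1 barcode held most of the counts. Lcn2 had -1.89 in sham over control in members and 1.17 in capillary-marked barcodes, and 77 of its 80 control counts sat in 1 member. The mitosis gene Cenpf had 4.95 in CLP over sham in members, from 33 counts against 0, which is at least 5.08-fold higher, with 23 of the 33 in 1 member, and -1.13 in capillary-marked barcodes.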

How the results depend on the processing

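With 1 library per group and no shared replicate numbers in the labels, no replicate could be left out. No paired analysis was possible because each group has 1 library. Among alternatives, 622 values of list medians stayed within an interval of the main median, 29 fell outside it and 4 were counted as reversed. That interval was set by the spread between the genes of a list and not by counting error. For named genes, held against their counting intervals, these numbers were 2725, 570 and 41. The 4 reversed list medians were all of the cell cycle list in CLP plus stimulation over CLP. Some of the 29 list medians also changed sign, such as the Notch list in that comparison, from -0.70 to 0.69 after thinning. Leaving out the barcode of most UMIs and dropping Sema3g or Stmn2 from the rule were chosen after seeing the data. The limit to members with fewer than 2 capillary markers was not run for CLP plus stimulation over CLP because it would leave 4 stimulated members. The cause was not tested for any value below. The stimulated library holds 40 members, and thinning leaves 11 of them.

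Genes at least 2-fold apart in sham over control numbered 149 with 5 CPM added, 103 at 50 counts, 3805 with no count limit, 242 after thinning and 609 with members weighted equally, beside 366. In CLP over sham they numbered 526, 545, 4136 and 360 for the first 4 of these and 306 with fewer than 2 capillary markers, beside 1001. In CLP plus stimulation over CLP they numbered 1953 at 50 counts, 6890 with no limit and 613 after thinning, beside 3056.

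Among members with fewer than 2 capillary markers, list medians in sham over control were -0.39 (Notch), -0.57 (arterial), -0.65 (matrix), -0.62 (vasomotor), -0.62 (junction), -0.77 (adhesion and chemokine), -0.55 (interferon), -0.83 (glucocorticoid), -0.72 (coagulation), -0.23 (VEGF), -0.42 (TGF-beta and BMP), -0.39 (lipid uptake) and -0.37 (clock), and in CLP over sham 0.75 (matrix), 0.87 (vasomotor), 2.14 (adhesion and chemokine), 1.23 (coagulation), 1.13 (lipid uptake), 0.68 (immediate early) and -0.86 (cell cycle). Genes counted as reversed there were Ccl2 -1.37, Cxcl10 -0.72, Cyp26b1 4.2, Dbp -0.030, Fxyd6 -1.82 and Ifit1 -1.82 in sham over control and Col18a1 0.41, Cxcl1 -1.5, Gja1 0.27, Per3 1.85 and Ube2c -1.32 in CLP over sham. Thinning gave medians of -0.30 (immediate early) in CLP over sham and 0.69 (Notch), 0.78 (matrix), -0.28 (interferon) and -0.19 (cell cycle) in CLP plus stimulation over CLP, and opposite signs for Ccl2 -0.39, Cp 0.38, Cxcl10 -0.39 and Lcn2 1.89 in sham over control, Ptgis 1.27 in CLP over sham and Cxcl9 0.15, F2r 0.36, Ifit1 0.74, Lfng 1.84, Pkp4 0.037, Plat -2.41, Serpina3g 1.84 and Serpina3n 1.1 in CLP plus stimulation over CLP. With at least 3 arterial genes the median was 0.58 (interferon) in CLP over sham and -0.23 (immediate early) and -0.46 (cell cycle) in CLP plus stimulation over CLP, and opposite signs were found for Lcn2 3.72 in sham over control and Acsl3 -0.35, Cenpf 1.24, Cxcr4 -0.063, Selp -0.35 and Tef 0.27 in CLP plus stimulation over CLP. Dropping Sema3g gave -1.22 (junction), -0.68 (TGF-beta and BMP) and -0.37 (immediate early) in CLP plus stimulation over CLP, with Cenpf 1.08, and dropping Stmn2 gave Ccl2 -0.29 and Lcn2 3.84 in sham over control. In CLP plus stimulation over CLP, leaving out barcodes with Ptprc or neutrophil UMIs gave -0.30 (cell cycle) and Birc5 -0.64, Cxcr4 -0.71 and Nr4a3 -0.20; leaving out the deepest barcodes gave -0.65 (cell cycle) and Birc5 -2.03, Cxcr4 -0.40, Hp -0.24 and Nr4a3 -0.40; and equal weights gave Cxcr4 -0.15.

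The log2 ratio of the share of endothelial barcodes in CLP over sham was 0.52, and 0.19 with 3 arterial genes, -0.093 with few capillary markers, -0.045 after thinning and -0.17 without Sema3g. In sham over control it was -0.27 with few capillary markers and -0.27 after thinning, and in CLP plus stimulation over CLP -0.11 with few capillary markers, -0.29 without Stmn2 and -1.61 with a wider denominator. For the share of kept barcodes these ratios were 0.62, 0.31, 0.44 and 0.28 in CLP over sham, -0.42 and -0.40 in sham over control, and -2.38 and -2.44 in CLP plus stimulation over CLP.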

Other observations

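Coagulation genes had a median of 0.051 in CLP over sham, beside -0.14 for all genes. Of 11 measured, 7 were above 0, where 38.5% of all genes were. The von Willebrand factor gene Vwf had the lowest ratio there, -0.89. Thrombomodulin, Thbd, which turns thrombin into an anticoagulant enzyme, stood at 139 in control, 223 in sham, 181 in CLP and 22.8 with stimulation, in CPM, and the ratio of CLP plus stimulation over CLP was -2.9 (95% interval -4.21 to -2.0). Junction genes had 4 of 14 above 0 in CLP over sham, near the 38.5% of all genes (median -0.33), with Gja1, the connexin-43 gene, at 134, 208, 83.8 and 151 CPM and Pkp4, a plakophilin, at 168, 148, 407 and 134 CPM. The tight junction gene Cldn5 stood at 855, 530.5, 652 and 1482 CPM, highest with stimulation.

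Among vasomotor and shear-responsive genes, Ramp2, a subunit of the adrenomedullin receptor, stood at 734, 726, 1405 and 369.8 CPM and its partner receptor Calcrl had a ratio of -3.49 in CLP plus stimulation over CLP, where 6 of 17 of the list were above 0 (median -0.49, or -0.15 without the deepest barcodes). Ednrb, the endothelin B receptor, had the highest ratio of the list there, 1.37. In TGF-beta and BMP signalling, Tgfb2 stood at 58.1, 33.8, 4.57 and 8.53 CPM and Bmp6 at 29.1, 39.5, 90.2 and 0 CPM, so that Bmp6 was highest in CLP. Inhba, the other activin subunit gene, had 58 counts in sham and 0 in control, but 51 of the 58 sat in 1 barcode. In the matrix list, Col18a1, a basement membrane collagen, had -2.05 and Ltbp1, which stores latent TGF-beta, -1.78 in CLP over sham.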
